A study of Mus musculus with 16 samples.

Results

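Cobalamin, vitamin B12, is taken into cells on a carrier protein, released from the lysosome, stripped of its upper ligand in the cytosol and then used as the cofactor of a methyltransferase in the cytosol and a mutase in the mitochondrion. The 10 genes described here cover that route in a mouse kidney cell line. They are the carrier Tcn2, the receptor Cd320, the lysosomal exit proteins Lmbrd1 and Abcd4, the cytosolic processing proteins Mmachc and Mmadhc, methionine synthase Mtr with its reactivating partner Mtrr, the adenosyltransferase Mmab and methylmalonyl-CoA mutase Mmut. They were chosen by gene symbol from 19505 named genes on the array. Each of the 10 had 1 probe set, so no choice between probe sets was needed.

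The cells were BU.MPT, a line of mouse kidney proximal tubule that carries a temperature-sensitive SV40 large T antigen. All cells were kept at 39 °C without interferon, conditions under which that antigen is not maintained, and all 16 samples come from this single line. The 4 groups had 4 arrays each and crossed H/R with B12. H/R+B12 and H/R cells spent 3 h at about 1% oxygen in medium lacking glucose and serum, followed by 1 h back in normal culture (hypoxia/reperfusion). Control+B12 and control cells stayed at 21% oxygen with 10% serum and 4.5 g/L glucose. The H/R+B12 and control+B12 groups received 0.3 µM cyanocobalamin, the stable pharmaceutical form of the vitamin. Oxygen, glucose and serum changed together and cannot be told apart. The labels do not say whether the 4 samples of a group were separate cultures, so p-values measure the spread between these samples, which may be technical. The titles of all 8 samples with the vitamin read B12, while the descriptions of their replicates 2 to 4 read B13, B14 and B15; the titles and the protocol were followed.

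Signal is given as log2 units of the authors' summarised array values, where a difference of 1 is a doubling. Array medians over 22206 probe sets ranged from 5.22 to 5.38, with a mean difference of -0.08 between the 8 H/R arrays and the others, and the medians of the negative control features ranged from 5.72 to 6.23 per array. The labelled cell type was checked against marker genes. The proximal tubule markers Aqp1 and Mme exceeded the negative control median on all 16 arrays, whereas Lrp2, Cubn, Slc34a1, Slc5a2, Slc22a6 and Hnf4a did so on 0 of 16. The keratins Krt8 and Krt18 of epithelia were above it on all 16 arrays, Cldn2 on 10, Cdh1 on 9 and Epcam on 0. Of the markers of other cells, 0 of 4 for fibroblasts, 0 of 5 for endothelium and 0 of 4 for leukocytes were above it on every array, with Col1a1 above it on 9 arrays and Cdh5 on 1.

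After H/R the signal of the receptor, of both cofactor-using enzymes and of the adenosyltransferase was lower, and that of Lmbrd1 was higher. Without added B12, 4 of the 10 genes fell (Cd320, Mmab, Mtr and Mmut) and 1 rose (Lmbrd1) at an adjusted p under 0.05 in limma. Over all probe sets 9.54% fell and 8.11% rose by the same rule, 17.6% in either direction. At an unadjusted p under 0.05 there were 8 of the 10 genes, beside 27.6% of all probe sets. With B12 in both arms 5 of the 10 fell (the same 4 and Tcn2) and Lmbrd1 rose, beside 9.61% and 9.04% of all probe sets and 18.7% in either direction. The unadjusted count was 7 of 10, beside 29.1%. The 2 comparisons use separate arrays but share 1 variance estimate per gene, so their calls are not independent. In both of them, 5 of the 10 genes were called in the same direction, beside 13.2% of all probe sets, and 8 of the 10 had a log2 change of the same sign, beside 69% of all probe sets. The median log2 change of the 10 genes was -0.33 without B12 and -0.54 with B12, where the median of all probe sets was -0.02 and -0.04. The shares of all probe sets, here and below, include many at background, since every array median lay below the negative control medians. Every member except Abcd4 exceeded the negative control median on all 16 arrays. Shares among probe sets above background were not computed, so part of the excess may reflect signal level. In RNA from whole cultures, fewer cells expressing a gene and less RNA per cell cannot be told apart.

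**Figure D1:**
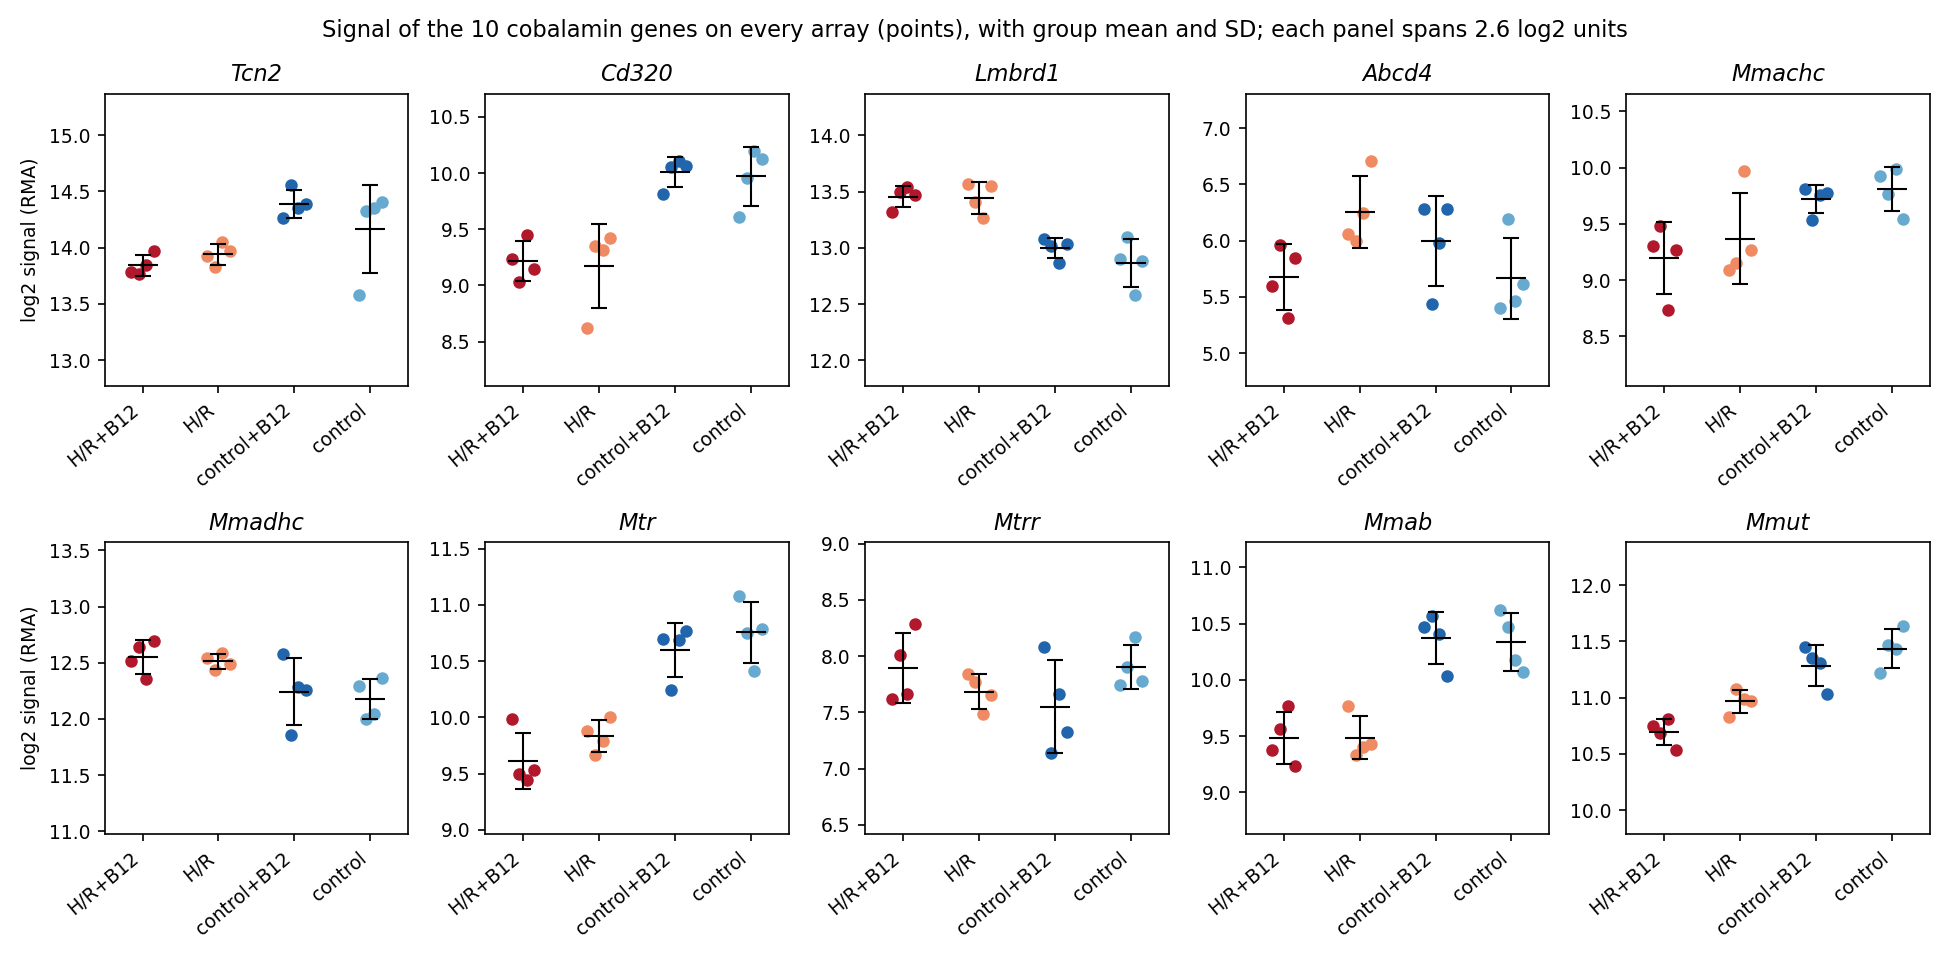
Log2 signal of the 10 cobalamin genes (vertical axis) on each array, by group (horizontal axis); points are arrays, and the black bars give the group mean and SD (n = 4). Each panel spans the same number of log2 units. In Cd320, Mtr and Mmab all 8 H/R arrays lie below all 8 arrays without H/R, and in Lmbrd1 they lie above them.

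Uptake begins with transcobalamin, the carrier encoded by Tcn2, and ends with endocytosis of the loaded carrier by Cd320, its receptor. Cd320 (probe set TC1700000595.mm.2) read 8.62, 9.35, 9.31 and 9.42 in H/R cells, against 9.61, 9.95, 10.19 and 10.13 in control cells. With B12 it read 9.24, 9.03, 9.45 and 9.15 in H/R+B12 cells, against 9.82, 10.06, 10.10 and 10.07 in control+B12 cells. The groups did not overlap in either comparison. The log2 change was -0.80 ± 0.18 without B12 (SE, n = 4 against 4, limma adjusted p = 0.00536) and -0.79 ± 0.18 with B12 (limma adjusted p = 0.00532), which puts the signal in H/R cells at 57.6% of control (95% interval 44% to 75.4%) and that in H/R+B12 cells at 57.7% of control+B12.

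Tcn2, which carries the vitamin in the blood and is secreted by many tissues, gave 13.93, 13.82, 14.05 and 13.97 in H/R cells, against 13.58, 14.33, 14.35 and 14.41 in control cells. The H/R arrays lay between the lowest control array and the other 3. In H/R+B12 cells it gave 13.78, 13.77, 13.84 and 13.97, against 14.26, 14.56, 14.35 and 14.39 in control+B12 cells, where all 4 H/R+B12 arrays were lower. Its change on the log2 scale was -0.22 ± 0.17 without B12 (limma adjusted p = 0.441) and -0.55 ± 0.17 with B12 (limma adjusted p = 0.0273). The difference between these changes was -0.32 ± 0.23 (limma adjusted p = 0.987). Without control replicate 1 the change in H/R cells was -0.42 (limma adjusted p = 0.0315). The call with B12 was lost without control+B12 replicate 2 (adjusted p = 0.0764) or 4 (0.0536), without H/R+B12 replicate 1 (0.0634), 2 (0.0668) or 3 (0.0556), and with each array's median set to 0 (0.063).

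Lmbrd1 and Abcd4 are lysosomal membrane proteins, and loss of either traps cobalamin in the lysosome. Lmbrd1 (probe set TC0100000171.mm.2) was the single member that rose. It read 13.57, 13.41, 13.26 and 13.55 in H/R cells, against 12.90, 13.10, 12.58 and 12.88 in control cells, and 13.32, 13.50, 13.54 and 13.47 in H/R+B12 cells, against 13.08, 13.02, 12.87 and 13.04 in control+B12 cells. Every H/R array exceeded every array of its comparison group. The log2 change was 0.58 ± 0.13 without B12 (limma adjusted p = 0.00513), or 150% of the control level (95% interval 123% to 182%), and 0.46 ± 0.13 with B12 (limma adjusted p = 0.0232). The call with B12 was lost without control+B12 replicate 3 (adjusted p = 0.0671), without H/R+B12 replicate 2 (0.056) or 3 (0.0633), and after quantile normalization (0.0758).

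Abcd4, an ABC transporter that Lmbrd1 helps to bring to the lysosome, lay at the background of the array and its values are uncertain. It exceeded the negative control median on 0 of 4 H/R+B12 arrays, 2 of 4 H/R arrays, 3 of 4 control+B12 arrays and 1 of 4 control arrays. Its signal was 5.59, 5.96, 5.31 and 5.84 in H/R+B12 cells, 6.06, 5.99, 6.25 and 6.71 in H/R cells, 6.28, 5.44, 5.98 and 6.28 in control+B12 cells and 5.40, 6.19, 5.46 and 5.61 in control cells. Its change on the log2 scale was 0.59 ± 0.23 for H/R against control (limma adjusted p = 0.101; 0.0356 without control replicate 2) and -0.32 ± 0.23 for H/R+B12 against control+B12 (limma adjusted p = 0.411). H/R cells had the highest mean, and the groups of both comparisons overlapped.

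Mmachc removes the upper ligand of incoming cobalamins, the cyano group of cyanocobalamin included, and Mmadhc, its partner, directs the product to the cytosolic or the mitochondrial enzyme. Neither passed the test in either comparison. Mmachc read 9.09, 9.15, 9.97 and 9.27 in H/R cells, against 9.92, 9.77, 9.99 and 9.55 in control cells, with H/R replicate 3 among the control values and the other 3 below all of them. It read 9.30, 9.48, 8.73 and 9.27 in H/R+B12 cells, against 9.81, 9.53, 9.76 and 9.77 in control+B12 cells, with no overlap. The log2 changes were -0.44 ± 0.20 (limma adjusted p = 0.162; 0.022 without H/R replicate 3) and -0.52 ± 0.20 (limma adjusted p = 0.0843). Mmadhc gave 12.54, 12.43, 12.58 and 12.49 in H/R cells, against 12.29, 12.003, 12.04 and 12.36 in control cells. Its 4 H/R arrays were all above the control arrays, with a log2 change of 0.34 ± 0.15 (limma adjusted p = 0.16). With B12 the change was 0.31 ± 0.15 (limma adjusted p = 0.198) and the groups overlapped, at 12.36 to 12.69 in H/R+B12 cells, against 11.86 to 12.58 in control+B12 cells.

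In the cytosol, Mtr transfers a methyl group from methyltetrahydrofolate through cobalamin to homocysteine, which yields methionine, and Mtrr reduces the cofactor when it has become oxidised. Mtr (probe set TC1300001445.mm.2) had the largest change of the 10 genes in both comparisons. It read 9.88, 9.67, 9.79 and 10.00 in H/R cells, against 11.08, 10.75, 10.41 and 10.79 in control cells, and 9.98, 9.50, 9.44 and 9.54 in H/R+B12 cells, against 10.70, 10.25, 10.69 and 10.77 in control+B12 cells. Both pairs of groups were fully apart. The log2 change was -0.92 ± 0.17 without B12 (limma adjusted p = 0.00108) and -0.99 ± 0.17 with B12 (limma adjusted p = 0.000621), so that H/R cells held 52.8% of the control signal (95% interval 41% to 67.9%) and H/R+B12 cells 50.5% of the control+B12 signal (95% interval 39.2% to 65%).

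Mtrr, the reductase of the same reaction, did not pass. It read 7.84, 7.77, 7.48 and 7.65 in H/R cells, against 7.74, 7.91, 8.17 and 7.78 in control cells, and 7.62, 8.01, 7.66 and 8.29 in H/R+B12 cells, against 8.08, 7.14, 7.66 and 7.33 in control+B12 cells, with overlap in both. The log2 changes had opposite signs, -0.22 ± 0.20 without B12 (limma adjusted p = 0.565) and 0.34 ± 0.20 with B12 (limma adjusted p = 0.286).

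In the mitochondrion, Mmab attaches the adenosyl group that makes the active cofactor, and Mmut uses it to turn methylmalonyl-CoA into succinyl-CoA. Mmab (probe set TC0500003061.mm.2) read 9.77, 9.34, 9.41 and 9.43 in H/R cells, against 10.62, 10.47, 10.18 and 10.07 in control cells. With B12 it read 9.38, 9.56, 9.77 and 9.23 in H/R+B12 cells, against 10.47, 10.57, 10.41 and 10.04 in control+B12 cells. All 8 H/R arrays lay below all 8 others. Its log2 change was -0.85 ± 0.17 without B12 (limma adjusted p = 0.00199) and -0.89 ± 0.17 with B12 (limma adjusted p = 0.0014), or 55.5% and 54.1% of the level without H/R.

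Mmut (probe set TC1700000819.mm.2) changed less than Mmab, with non-overlapping groups in both comparisons. Its values were 10.83, 11.08, 10.99 and 10.97 in H/R cells, against 11.22, 11.46, 11.43 and 11.63 in control cells, and 10.75, 10.68, 10.81 and 10.54 in H/R+B12 cells, against 11.45, 11.35, 11.30 and 11.03 in control+B12 cells. The log2 change was -0.47 ± 0.13 without B12 (limma adjusted p = 0.022) and -0.59 ± 0.13 with B12 (limma adjusted p = 0.00484). The call without B12 was lost without control replicate 2 (adjusted p = 0.0505) or 4 (0.0711), without H/R replicate 1 (0.0677), with each array's median set to 0 (0.0556) and in a fit of these 8 arrays alone (0.0577). The call with B12 remained under every alternative that kept the adjusted threshold.

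The promoters were read from RefSeq windows of build GRCm38.p6, which covered 6 of the 10 genes (Cd320, Lmbrd1, Mmachc, Mmab, Mtr and Mtrr) in 9 windows. The 250 bases before each start were searched on both strands. The core of the element bound by Thap11 and the zinc finger protein Zfp143 occurred in the windows of Mtr and Mmachc and in 1.82% of all 32851 windows. The stretch around it is shown for both genes, read on the strand of the element, because no other member window held a match. Capitals mark the element. The Mtr stretch is chr13:12258284-12258313 on the minus strand and the Mmachc stretch chr4:116708389-116708418 on the plus strand.
Mtr: gtactcaggACTACATCTCCcatagggcca
Mmachc: cagggctggACTACATTTCCcaagaagtaa

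The element lay 191 to 181 bases before the start used for the Mtr window, on the strand of the gene. For Mmachc it lay 23 to 13 bases before the start used, on the opposite strand. Mtr fell in both H/R comparisons and Mmachc did not pass in either. A match of letters is a description and not a site of binding.

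The longer windows of the 2 members with the largest changes are shown over the bases that lie outside the annotated gene. These are 164 of the 250 searched bases for Mtr and 204 for Mmab. The other searched bases lie within the annotated gene, so the start used is not its outermost base. The same element and CCAAT (either strand, so also as ATTGG) are in capitals. Both lie on the minus strand, Mtr at chr13:12258200-12258363 and Mmab at chr5:114444074-114444277.
Mtr: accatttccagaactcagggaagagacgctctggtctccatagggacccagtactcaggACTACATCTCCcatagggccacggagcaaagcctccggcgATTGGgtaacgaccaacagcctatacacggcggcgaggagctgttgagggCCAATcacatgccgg
Mmab: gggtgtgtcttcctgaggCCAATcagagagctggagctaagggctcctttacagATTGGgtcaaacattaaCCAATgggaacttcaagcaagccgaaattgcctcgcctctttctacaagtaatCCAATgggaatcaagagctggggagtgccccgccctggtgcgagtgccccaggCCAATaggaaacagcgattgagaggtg

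CCAAT, the box bound by the factor NF-Y, was in 33.8% of all windows and in those of Cd320, Mmab, Mtr and Mtrr. The Mmab window held 5 matches, 4 of them on the strand of the gene and spaced 53 bases apart, and 0.213% of all windows held 5 or more. The core of the hypoxia element, ACGTG or GCGTG, was found in Lmbrd1 and Mmachc (ACGTG, 16.6% of all windows) and in Cd320, Lmbrd1 and Mtrr (GCGTG, 28.2%), which include a gene that rose, a gene that fell and 2 that did not pass. Also searched were GGGCGG (32.7%, in all 6 genes), CATGTG (12.3%, Mtr), CCGGAAG (6.91%, Lmbrd1) and ACTACA, part of the element above (8.92%, Mtr and Mmachc). Matches to CACGTG (6.02%), ACTACAA (2.81%), TGACGTCA (1.55%), TGATGCAA (0.791%), the palindromic Nrf1 element (0.782%) and the second part of the Thap11 and Zfp143 element (0.195%) were found in 0 of the 9 windows. ACGTG is contained in CACGTG.

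Counted by separation of the arrays, 4 of the 10 genes were lower and 2 higher on all 4 H/R arrays than on all 4 control arrays, beside 11% and 9.88% of all probe sets. For H/R+B12 against control+B12 the counts were 6 lower and 1 higher, beside 11.2% and 10.3%. Leaving out any 1 array left 4 to 6 genes called in each comparison.

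**Figure D2:**
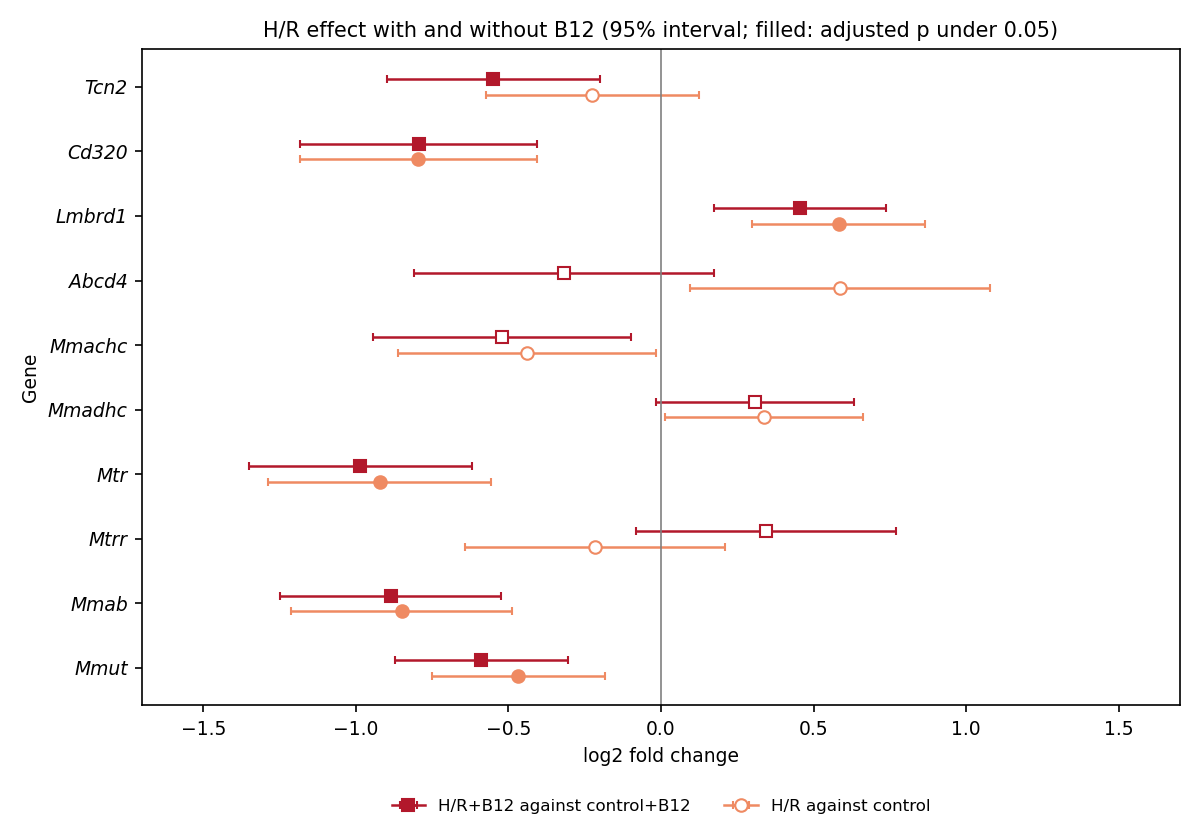
Log2 fold change with its 95% interval (horizontal axis) of each cobalamin gene (vertical axis) for H/R+B12 against control+B12 (squares) and H/R against control (circles), 4 arrays per group; filled symbols have an adjusted p under 0.05 in limma. Mtr, Mmab and Cd320 lie between -0.79 and -0.99 in both comparisons, and Abcd4 and Mtrr change sign between them.

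Added B12 did not move any of the 10 genes past the threshold in either condition. By limma 0 of 10 passed for H/R+B12 against H/R and 0 of 10 for control+B12 against control, as did 0 of all 22206 probe sets in each comparison (0%). At an unadjusted p under 0.05 there was 1 of 10 in H/R cells (Abcd4), beside 4.55% of all probe sets, and 0 of 10 in control cells, beside 5.76%. For H/R+B12 against H/R the log2 changes ran from -0.58 in Abcd4 to 0.21 in Mtrr. For control+B12 against control they ran from -0.35 in Mtrr to 0.33 in Abcd4.

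The receptor and the adenosyltransferase differed little with B12. Cd320 was at 0.04 ± 0.18 in H/R cells (95% interval -0.35 to 0.43) and 0.04 ± 0.18 in control cells (-0.35 to 0.43). Mmab was at 0.00 ± 0.17 in H/R cells (-0.36 to 0.36) and 0.04 ± 0.17 in control cells (-0.33 to 0.40). These intervals include changes of up to about 0.4 log2 units in either direction, so the absence of a call does not show that the levels were equal.

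Mtr, Mmut and the processing protein Mmachc were lower with B12 on average in both conditions, without passing the test. Cd320, Lmbrd1 and Mmadhc were higher with B12 on average in both, also without passing. Mtr was at -0.22 ± 0.17 in H/R cells and -0.16 ± 0.17 in control cells, and Mmut at -0.27 ± 0.13 and -0.15 ± 0.13 (SE, n = 4 against 4; limma adjusted p from 0.941 to 1). Mmachc was at -0.17 ± 0.20 in H/R cells (0.03 without H/R replicate 3) and -0.09 ± 0.20 in control cells. Lmbrd1 was at 0.01 ± 0.13 in H/R cells and 0.13 ± 0.13 in control cells, and Mmadhc at 0.04 ± 0.15 and 0.07 ± 0.15. The sign differed between conditions for Tcn2, at -0.10 ± 0.17 in H/R cells and 0.22 ± 0.17 in control cells. All of these 95% intervals included 0, such as -0.59 to 0.14 for Mtr and -0.56 to 0.01 for Mmut in H/R cells. All 4 H/R+B12 arrays of Mmut, at 10.54 to 10.81, lay below the 4 H/R arrays, at 10.83 to 11.08. Abcd4 was also apart in that direction, so 2 of 10 genes were lower on all arrays and 0 higher, beside 1.49% and 1.38% of all probe sets (2.87% either way), and Abcd4 lay at background. For control+B12 against control 0 of 10 were apart, beside 1.51% lower and 1.36% higher (2.87% either way). Averaged over both conditions, the B12 difference of Mmut was -0.21 ± 0.09 (unadjusted p = 0.0391, limma adjusted p = 0.882), the single member of 10 under an unadjusted 0.05, beside 5.51% of all probe sets. That of Mtr was -0.19 ± 0.12 (limma adjusted p = 0.936). Over the 10 genes the 95% intervals of this averaged difference extended no lower than -0.47 and no higher than 0.31.

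**Figure D3:**
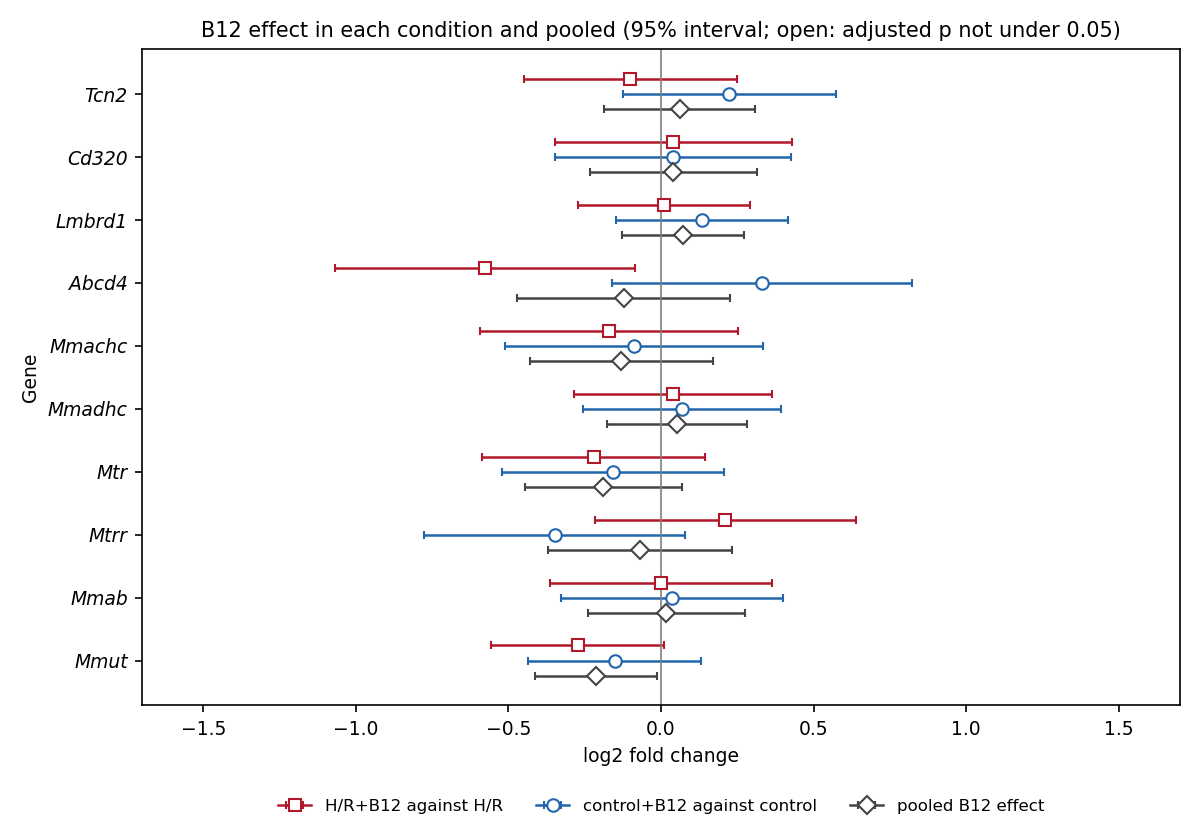
Log2 fold change with its 95% interval (horizontal axis) of each cobalamin gene (vertical axis) for H/R+B12 against H/R (squares), control+B12 against control (circles) and the mean of both (diamonds). All symbols are open because 0 of 10 genes passed the adjusted threshold in any of the 3; the widest intervals belong to Abcd4.

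Whether B12 altered the response to H/R was tested as the difference between both H/R changes, with B12 minus without. By limma 0 of 10 genes passed, as did 0 of 22206 probe sets (0%), and at an unadjusted p under 0.05 there was 1 of 10 (Abcd4), beside 4.82% of all probe sets. The difference was 0.00 for Cd320 (95% interval -0.55 to 0.55), -0.04 for Mmab (-0.55 to 0.48), -0.06 for Mtr (-0.58 to 0.45), -0.12 for Mmut (-0.52 to 0.28) and -0.13 for Lmbrd1 (-0.52 to 0.27). It was larger for Abcd4, at -0.91 ± 0.33 (unadjusted p = 0.0138, limma adjusted p = 0.972), and for Mtrr, at 0.56 ± 0.28 (limma adjusted p = 0.987). Over the 10 genes the 95% intervals of this difference extended from -1.60 to 1.16.

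The first of 3 lists of related genes held other genes of cobalamin handling. Of 11 listed, 10 were measured, and 1 fell and 0 rose in each H/R comparison, with a median log2 change of 0.02 without B12 and -0.22 with B12. Over all probe sets 9.54% fell and 8.11% rose without B12, and 9.61% and 9.04% with B12, so the count of this list was near the share of all probe sets. The gene that fell was Prdx1, a peroxiredoxin whose gene lies beside Mmachc. It averaged 16.37 ± 0.05 in H/R cells, against 16.94 ± 0.07 in control cells (SD, n = 4 each), a log2 change of -0.57 ± 0.10 (limma adjusted p = 0.000915), and -0.50 ± 0.10 with B12 (limma adjusted p = 0.00258). Mmaa, the GTPase that assists loading of the mutase, was at -0.60 ± 0.21 without B12 (limma adjusted p = 0.0562) and -0.38 ± 0.21 with B12 (0.249), and it passed without B12 when control replicate 2 was left out (0.0491). Cubn and Amn, the receptor for intrinsic factor-bound cobalamin, and Lrp2, the tubular receptor that retrieves filtered transcobalamin, were above the negative control median on 0 of 16 arrays, as was intrinsic factor, Cblif. Their log2 changes of -0.40 to 0.52 describe background. Hcfc1 and Thap11, a transcriptional coregulator and its DNA-binding partner on which MMACHC transcription depends in human cells, were at -0.01 ± 0.13 and 0.19 ± 0.16 without B12, and at -0.25 ± 0.13 and 0.44 ± 0.16 with B12 (limma adjusted p from 0.0685 to 0.984). Thap11 passed with B12 after median centring (0.0301) or quantile normalization (0.0365), after the dimmest 25% were dropped (0.0454) and without H/R+B12 replicate 3 (0.0397).

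The mitochondrial steps that lead propionyl-CoA to Mmut and its product onward had 4 of 7 genes lower and 0 higher without B12, and 1 lower and 0 higher with B12, with median log2 changes of -0.61 and -0.26. Beside them, 9.54% of all probe sets fell without B12 and 9.61% with B12, with medians of -0.02 and -0.04, so the count with B12 was near the share of all probe sets and that without B12 was above it. The difference between both H/R changes, with B12 minus without, had a median of 0.36 over the list and passed in 0 of the 7 genes. The unequal counts therefore do not show that B12 altered the response of these genes. Sucla2, among the 7, was above the negative control median on 0 of 16 arrays. The carboxylase subunit Pccb averaged 6.76 ± 0.53 in H/R cells, against 8.09 ± 0.16 in control cells, and 6.60 ± 0.25 in H/R+B12 cells, against 7.28 ± 0.48 in control+B12 cells (SD, n = 4 each). Its log2 change was -1.33 ± 0.26 without B12 (limma adjusted p = 0.00141) and -0.67 ± 0.26 with B12 (limma adjusted p = 0.085), and the difference between these, 0.66 ± 0.36, did not pass (limma adjusted p = 0.987). The lowest H/R array of Pccb, at 5.97, lay within the range of the negative control medians, 5.72 to 6.23. Its control+B12 level was below control by a log2 change of -0.82 ± 0.26 (limma unadjusted p = 0.00582, adjusted p = 0.82). Pccb passed with B12 when control+B12 replicate 3 was left out (0.0451). The partner subunit Pcca was at -0.75 ± 0.20 without B12 (limma adjusted p = 0.0164) and -0.26 ± 0.20 with B12 (0.462). The epimerase Mcee, which makes the form of methylmalonyl-CoA that Mmut accepts, fell in both, by 0.70 ± 0.22 (limma adjusted p = 0.0341) and 0.87 ± 0.22 (0.00913). Suclg1, a subunit of the next enzyme of the chain, was at -0.61 ± 0.13 (limma adjusted p = 0.00316) and -0.24 ± 0.13 (0.238). The Pcca call was lost without control replicate 2 (0.052) or H/R replicate 1 (0.0522), and the Mcee call without B12 was lost without control replicate 2 (0.0559), 3 (0.1) or 4 (0.106) or H/R replicate 2 (0.121) or 3 (0.0789).

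Around Mtr, 12 of 14 listed genes of the methionine cycle and transsulfuration were measured, 1 of them lower and 0 higher without B12, and 0 lower and 1 higher with B12, with medians of -0.20 and -0.22. Both counts were near the shares of all probe sets, 9.54% lower without B12 and 9.04% higher with B12. Of the 12 genes, 5 were above the negative control median on all 16 arrays, so the counts and medians include genes at background. Mat1a and Gnmt were above it on 0 arrays and Cbs on 1. Ahcy, which hydrolyses S-adenosylhomocysteine to the homocysteine that Mtr methylates, averaged 11.68 ± 0.32 in H/R cells, against 12.43 ± 0.22 in control cells (SD, n = 4 each), a log2 change of -0.75 ± 0.17 (limma adjusted p = 0.00419), and -0.40 ± 0.17 with B12 (limma adjusted p = 0.123). Cth, the last enzyme of transsulfuration, was higher in H/R+B12 cells than in control+B12 cells, with a log2 change of 1.14 ± 0.37 (limma adjusted p = 0.0389). It exceeded the negative control median on 8 of 16 arrays. That call was lost without control+B12 replicate 3 (0.0831) or 4 (0.131), and without H/R+B12 replicate 3 (0.135) or 4 (0.0707). Bhmt and Bhmt2, which remethylate homocysteine without cobalamin, were above background on 0 of 16 arrays.

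**Figure D4:**
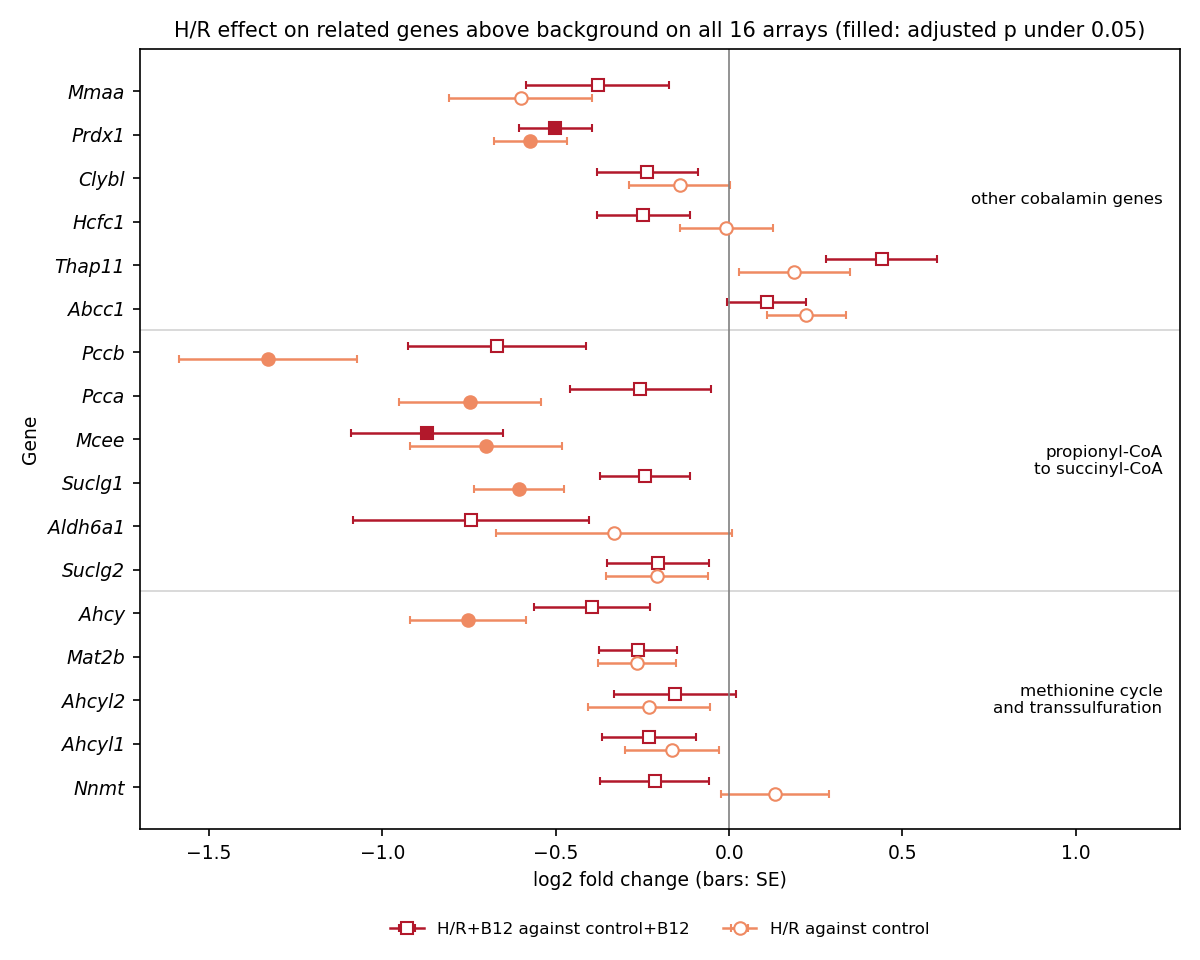
Log2 fold change with its SE (horizontal axis) of the 17 related genes above the negative control median on all 16 arrays (vertical axis, by list), for H/R+B12 against control+B12 (squares) and H/R against control (circles); filled symbols have an adjusted p under 0.05 in limma. Filled symbols lie left of 0 in each list, with Pccb farthest at -1.33 without B12. The lowest H/R array of Pccb was near background.

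Genes whose signal followed that of the 3 most changed members across arrays were ranked by the root mean square difference of log2 values over the 16 arrays, each gene first set to its own mean. Nearest to Mtr were Zfp292 (0.14), C2cd3 (0.20) and Trpv4 (0.20). Nearest to Mmab were Ddost (0.16), Fads3 (0.17) and Ciao2a (0.18), and nearest to Cd320 were Bola3 (0.14), Lipa (0.17) and Edf1 (0.18). Among the 10 members themselves the closest pair was Lmbrd1 and Mmadhc, at 0.23. Mtr and Mmab were each other's nearest member, at 0.31.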

How the data were processed

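RNA of 16 BU.MPT samples was measured on Affymetrix arrays, 1 array per sample. The deposited table holds log2 signal per probe set, made by the authors with RMA in Affymetrix Expression Console and compared in Transcriptome Analysis Console, per the submitters' processing notes; no versions are named there. RMA scales arrays to a common distribution, so a shift shared by most genes would not be seen. Of 28846 features, 6640 controls were left out and 22206 probe sets tested; 19572 carried 1 gene symbol, 0 several and 2634 none here. The values were fitted without further normalization in limma 3.58.1 (R 4.3.3) as 4 group means over all 16 arrays, with moderated variances (4.23 prior degrees of freedom). P-values are two-sided, adjusted by Benjamini and Hochberg over all probe sets, with a threshold of 0.05. The fit was tested on simulated data. A gene called above background exceeded the median of 5222 negative control features on an array.

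The members, lists and motifs were chosen with earlier results of these data known. Named genes are the 10 members, related genes past the threshold in either H/R comparison, and Mmaa, Mcee, Cubn, Amn and Lrp2; for the 3 most changed members the 3 genes nearest in pattern are named, predicted genes passed over; others were named after their values were seen. Listed genes without a value were not analysed here. The number of arrays limits the precision. Shared replicate numbers showed no pairing over the tested probe sets (24 correlations of deviations between -0.07 and 0.08). The negative control features were not part of these correlations. Their median was highest on replicate 1 in every group (6.10 in control, 6.08 in control+B12, 6.23 in H/R and 6.17 in H/R+B12). Whether arrays with the same number shared a run was not tested. Alternatives were the replicate block, only the groups compared, a trend with robust variances, array weights, dropping the dimmest 25%, quantile normalization, median centring, 1 probe set per gene, each array left out in turn, and an unadjusted p with a 2-fold change. Plots used Python 3.11.15 and matplotlib 3.10.9.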

Additional observations from a re-analysis of the deposited data

Results flagged for a closer look

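In 4 of 40 sets of 4 arrays (10 genes in 4 groups) the lowest array stood apart from the other 3 by Dixon's ratio, where chance flags about 5% of sets, or 2 of 40. Tcn2 on control array 1 read 13.58, with the other control arrays at 14.33 to 14.41. Cd320 on H/R array 1 read 8.62, with the others at 9.31 to 9.42, and Cd320 on control+B12 array 1 read 9.82, with the others at 10.06 to 10.10. Mtr on control+B12 array 2 read 10.25, with the others at 10.69 to 10.77. Except for Mtr, the flagged arrays were replicate 1, the number with the highest negative control median in every group. In H/R+B12 cells Cd320 was not lowest on replicate 1, at 9.24. With the replicate block Cd320 stayed called in H/R against control (limma adjusted p = 0.00294). The cause of these low values was not tested. Without H/R replicate 1 the change of Cd320 in H/R against control was -0.61 (limma adjusted p = 0.0174).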

How the results depend on the processing

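For H/R against control the 5 called members became 0, and for H/R+B12 against control+B12 the 6 became 0, under an unadjusted p under 0.05 with at least a 2-fold change, because no member reached a log2 change of 1. That rule gave 1156 of 22206 probe sets in place of 3919, and 1214 in place of 4142. Under the other alternatives the counts were 4 to 6 in both comparisons, 4 to 6 when each array was left out. Cd320, Mmab and Mtr remained called in both comparisons under every alternative that kept the adjusted threshold, as did Lmbrd1 without B12 and Mmut with B12. The members' calls that changed are named beside their genes, and their cause was not tested. Among related genes, Mcee without B12 was also lost after quantile normalization (0.0605), median centring (0.0622) and in a fit of these groups alone (0.0804), as was Cth with B12 in the last (0.0818); Mmaa without B12 (0.0403) passed with the dimmest 25% left out and Ahcy with B12 (0.0455) with a variance trend. Of 340 recomputed member values in these comparisons 26 lost the call, 3 gained it and 0 reversed. For the B12 comparisons, the interaction and the averaged B12 difference, 0 members were called under any alternative, and 47 of 820 recomputed values, none of them called, changed sign.

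With the replicate number as a block 5 and 6 members were called and 0 changed their call. The block made Mmaa a call in H/R against control (adjusted p = 0.0404) and ended that of Cth in H/R+B12 against control+B12 (adjusted p = 0.0584). Each array correlated best with its own number in 7 of 24 pairs. Abcd4, Cth, Cubn, Amn and Lrp2 lay at or below background, which limits what their values show.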

Other observations

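In 3 members the promoter window overlapped that of a neighbour on the opposite strand. These neighbours were looked up after the members' values were seen. Mmab faces Mvk, which encodes mevalonate kinase of cholesterol synthesis and shares a bidirectional promoter with MMAB in human cells. Mvk averaged 6.23 ± 0.25 in H/R cells, against 6.63 ± 0.54 in control cells, and 6.33 ± 0.41 in H/R+B12 cells, against 6.10 ± 0.37 in control+B12 cells (SD, n = 4 each). Its log2 change was -0.40 ± 0.27 without B12 (limma adjusted p = 0.377) and 0.23 ± 0.27 with B12 (limma adjusted p = 0.643), and it was above the negative control median on 13 of 16 arrays. Whether Mvk and Mmab differed in their response was not tested. Fastkd3, a mitochondrial RNA-binding protein that faces Mtrr, was at 0.22 ± 0.21 and -0.01 ± 0.21 (limma adjusted p = 0.582 and 0.986). Ccdc163, which faces Mmachc, was above background on 1 of 16 arrays, and its changes of -0.65 ± 0.47 and -0.36 ± 0.47 describe background.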
